A study of Mus musculus with 20 samples.

Results

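The nuclear genes of oxidative phosphorylation were followed in mouse embryonic stem (ES) cells of the TL1 line and in the embryoid bodies (EB) into which such cells aggregate as they differentiate. Members were all genes of the RNA table whose symbol starts with Nduf, Uqcr, Sdha to Sdhd, Cox4i, Cox5, Cox6, Cox7, Cox8 or Atp5, without models marked as pseudogenes by "-ps". This gave 91 of 53560 entries, with 44 assigned to complex I, 4 to complex II, 8 to complex III, 19 to complex IV and 16 to complex V. Of these, 90 passed the filter on low values (at least 1 FPKM in at least 2 of 8 libraries), and Cox8c did not. Cox4i1 was not analysed here.

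The study asked how the histone chaperone CAF-1 affects differentiation. Wild type ES cells, wild type EB, knockout ES cells and knockout EB were each profiled by RNA-seq in 2 libraries, and by ChIP-seq of H3K4me3 and of H3K27me3 in 1 library per mark. Knockout cells carry a CRISPR/Cas9 depletion of p150, the large CAF-1 subunit encoded by Chaf1a. ES cells of both genotypes grew with serum and LIF, the cytokine that holds them pluripotent, and EB of both genotypes grew in that medium with LIF left out. The labels give no number of knockout clones and no statement that the RNA libraries of a group came from separate cultures.

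Oxidative phosphorylation is the last stage of respiration in mitochondria. Complexes I and II pass electrons to ubiquinone, complex III passes them on to cytochrome c and complex IV to oxygen, while complexes I, III and IV pump protons and complex V, the ATP synthase, uses the gradient to make ATP. Complex II is encoded wholly in the nucleus, and the others combine nuclear subunits with subunits made from mitochondrial DNA. Pluripotent cells are known for a strong reliance on glycolysis, and heart muscle for some of the highest respiratory capacity of any tissue. Heart and skeletal muscle also use isoforms of their own for a few complex IV subunits.

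Facts of the whole series bear on these results in a few places. The deposited unit was FPKM, fragments scaled to transcript length and library size, and library totals ran from 641813 FPKM in wild type EB to 782026 FPKM in knockout EB, with no read counts, so the depth is unknown. Chaf1a stood at 31.7 and 32.1 FPKM in wild type EB and at 31.6 and 35.0 FPKM in knockout EB, and gene-level values do not see a small CRISPR lesion, so the genotype rests on the labels. The stage labels were checked against marker lists. Summed over 10 pluripotency markers, FPKM ran from 5911 to 6339 in the 4 ES libraries, was 314 and 549 in wild type EB, and was 7657 and 5399 in knockout EB. Summed over 13 cardiomyocyte markers, it ran from 15.7 to 29.5 in ES, was 5559 and 4372 in wild type EB, and was 39.9 and 358 in knockout EB. Wild type and knockout EB thus differed in these marker levels, and their part in the results below was not tested. In bulk samples fewer cells of a type and less RNA per cell cannot be told apart.

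Promoter sequences were read for the members where RefSeq gave a window. Windows of 250 bases before to 50 after the start site, from RefSeq (GRCm38.p6, the build also called mm10), were matched for 76 of the 91 members. The median window held 20 CpG dinucleotides, against 8 over the 27025 genes with a window, and members ran from 2 to 43. Cox8a, the general isoform of the smallest complex IV subunit, and Cox8b, its heart and skeletal muscle isoform, are shown because H3K4me3 signal and RNA were high at the one and near 0 at the other. Both are printed 5′ to 3′ on the gene's strand, the minus strand, with each CpG in capitals, at chr19:7217567-7217866 for Cox8a and chr7:140900397-140900696 for Cox8b.
Cox8a: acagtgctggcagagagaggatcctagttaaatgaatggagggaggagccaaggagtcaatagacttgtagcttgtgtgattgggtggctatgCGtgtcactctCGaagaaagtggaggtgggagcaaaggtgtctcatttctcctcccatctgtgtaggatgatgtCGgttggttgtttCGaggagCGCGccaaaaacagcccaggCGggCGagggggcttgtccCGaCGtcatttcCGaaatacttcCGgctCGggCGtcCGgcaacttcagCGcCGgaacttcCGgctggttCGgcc
Cox8b: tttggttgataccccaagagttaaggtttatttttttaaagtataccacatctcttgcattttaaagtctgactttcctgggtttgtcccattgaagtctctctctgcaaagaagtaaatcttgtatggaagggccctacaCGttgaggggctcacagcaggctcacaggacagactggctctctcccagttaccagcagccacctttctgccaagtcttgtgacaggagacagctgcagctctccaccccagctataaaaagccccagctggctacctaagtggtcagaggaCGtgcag
Cox8a held 19 CpG in its window and Cox8b 2.

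Motifs of known regulators of respiratory genes were searched on both strands of the same windows. The core of the nuclear respiratory factor NRF1, GCGCATGCG, was in 10 of 76 member windows (13.2%), against 1.95% of all genes. The YY1 core AAGATGGCG was in 8 (10.5%, against 1.64%), the ETS site CCGGAAGT in 5 (6.58%, against 4.31%), the estrogen-related receptor site TCAAGGTCA in 2 (2.63%, against 0.466%) and the MEF2-like string TATTTATA in 0 (against 2.01%). The NRF1, YY1 and ETS strings contain CpG, and the shares of all genes were not matched for CpG (median 20 in member windows, against 8). No window was matched for the tissue isoforms Cox4i2, Cox6a2, Cox8c and Ndufa4l2, so the search did not cover them. Members with the NRF1 core were Atp5g2, Atp5k, Atp5l, Cox6a1, Ndufa8, Ndufa11, Ndufaf4, Ndufaf5, Uqcr11 and Uqcrc1. Uqcrc1 and Atp5l are shown as the 2 of these 10 that were called higher in knockout EB (below), a share like the 20.0% of all genes called higher there. The other 8 were not called. Capitals mark the core with its reverse complement, at chr9:108936398-108936697 on the plus strand for Uqcrc1 and chr9:44920693-44920992 on the minus strand for Atp5l.
Uqcrc1: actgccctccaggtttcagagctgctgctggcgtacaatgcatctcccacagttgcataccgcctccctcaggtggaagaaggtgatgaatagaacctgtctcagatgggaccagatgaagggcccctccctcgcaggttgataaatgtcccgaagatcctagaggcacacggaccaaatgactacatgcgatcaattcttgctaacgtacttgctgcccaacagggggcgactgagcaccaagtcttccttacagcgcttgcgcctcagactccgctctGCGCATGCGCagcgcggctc
Atp5l: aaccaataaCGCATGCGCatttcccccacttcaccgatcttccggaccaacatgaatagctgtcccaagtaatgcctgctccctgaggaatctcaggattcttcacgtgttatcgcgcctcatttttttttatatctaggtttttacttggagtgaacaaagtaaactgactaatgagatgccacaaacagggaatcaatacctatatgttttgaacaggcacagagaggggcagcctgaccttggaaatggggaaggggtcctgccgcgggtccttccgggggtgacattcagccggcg
In Uqcrc1 the match is a palindrome read on both strands, and it begins 30 bases after the start site. In Atp5l it begins 241 bases before the start site. A match describes letters in a window and does not show that a factor binds there.

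Nuclear respiratory genes were among the abundant transcripts of every group. The median member had a mean of 115 FPKM over the 8 libraries, and 51 of the 91 members had a mean of at least 100 FPKM. The top level was that of Atp5b, the catalytic beta subunit of the ATP synthase (ENSMUSG00000025393.12, mm10 chromosome 10, 128083273 to 128090391), at 2007 ± 14.1 FPKM (SD, n = 2) in wild type ES. All 91 members summed to 2.31% ± 0.058 of a library's FPKM (SD, n = 2) in wild type ES, 2.26% ± 0.062 in knockout ES, 2.31% ± 0.015 in wild type EB, then 2.33% ± 0.0077 in knockout EB. The 4 shares lay close together, while the parts of the share moved. Complex IV took 0.544% ± 0.019 of FPKM in wild type EB, against 0.64% ± 0.041 in knockout EB, and complex I took 0.620% ± 0.0076 in wild type EB, against 0.559% ± 0.00017 in knockout EB. Complex V went from 0.875% ± 0.017 in wild type ES to 0.807% ± 0.0071 in wild type EB.

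**Figure D1:**
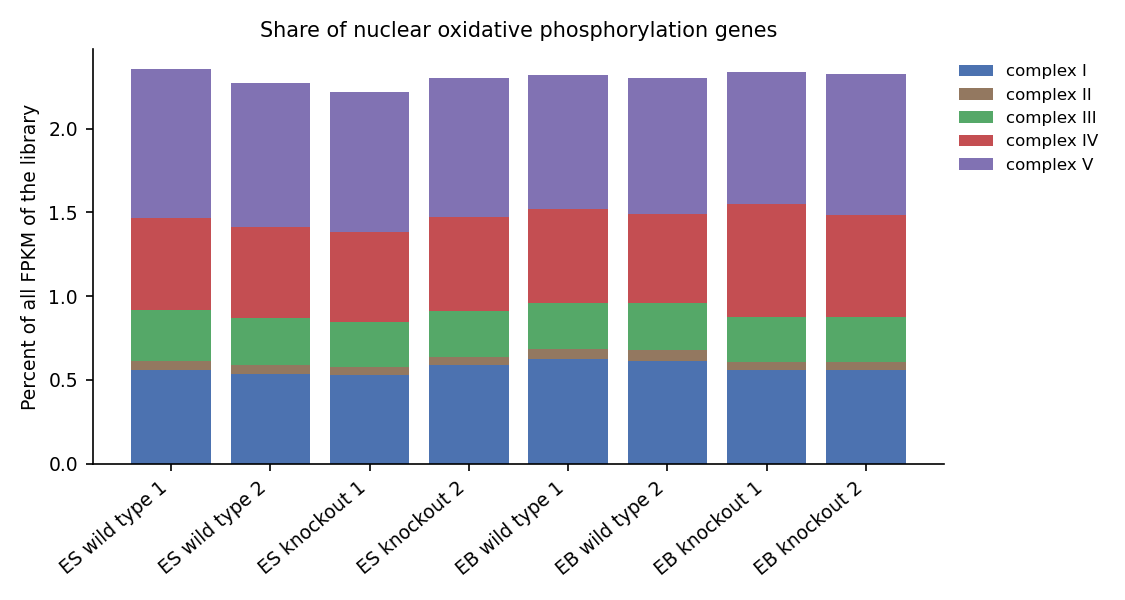
Share of all FPKM of a library (percent, linear axis from 0) taken by the 91 members, stacked by complex, with 1 bar per RNA library and no error bars. The 8 bars reach nearly the same height, and the complex IV segment is widest in knockout EB (0.64% on average, against 0.544% in wild type EB).

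Knockout and wild type EB differed in a limited set of members, on a log2(FPKM + 1) scale and by limma with Benjamini-Hochberg adjustment over all 15428 genes tested (calls at an adjusted p under 0.05). As deposited, 17 of 90 members were called higher and 4 lower in knockout EB, and with libraries scaled to the same total this turned to 8 higher and 16 lower. Over all genes 20.0% were called higher and 25.9% lower, so the count of higher members stood near the background and that of lower members below it. After scaling to the same total 14.8% of all genes were called higher and 33.9% lower, and with quantile normalization 14 members were higher and 7 lower, against 23.3% and 22.7% of all genes. The median member difference was 0.12, against -0.06 for all genes, and scaling to the same total moved these to -0.08 and -0.24. Quantile normalization gave 0.08 and 0.03. Relative to all genes, the members stood 0.19 higher as deposited, 0.15 higher after scaling to the same total and 0.05 higher after quantile normalization. Of the 17 higher calls, 8 were also made under both other scalings (same total and quantile normalization), and so were all 4 lower calls. Among these 4, Cox6a2 and Cox8b passed the filter on low values only through wild type EB. Without EB knockout replicate 1 only 5 members were called higher, and without EB wild type replicate 2 only 6. Lower calls went to 1 without EB wild type replicate 1 and to 2 without EB wild type replicate 2, and in both cases Cox6a2 and Cox8b did not pass the filter. Leaving aside 7 tissue isoforms of complex IV, all 83 other tested members differed by less than 1 on this scale.

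**Figure D2:**
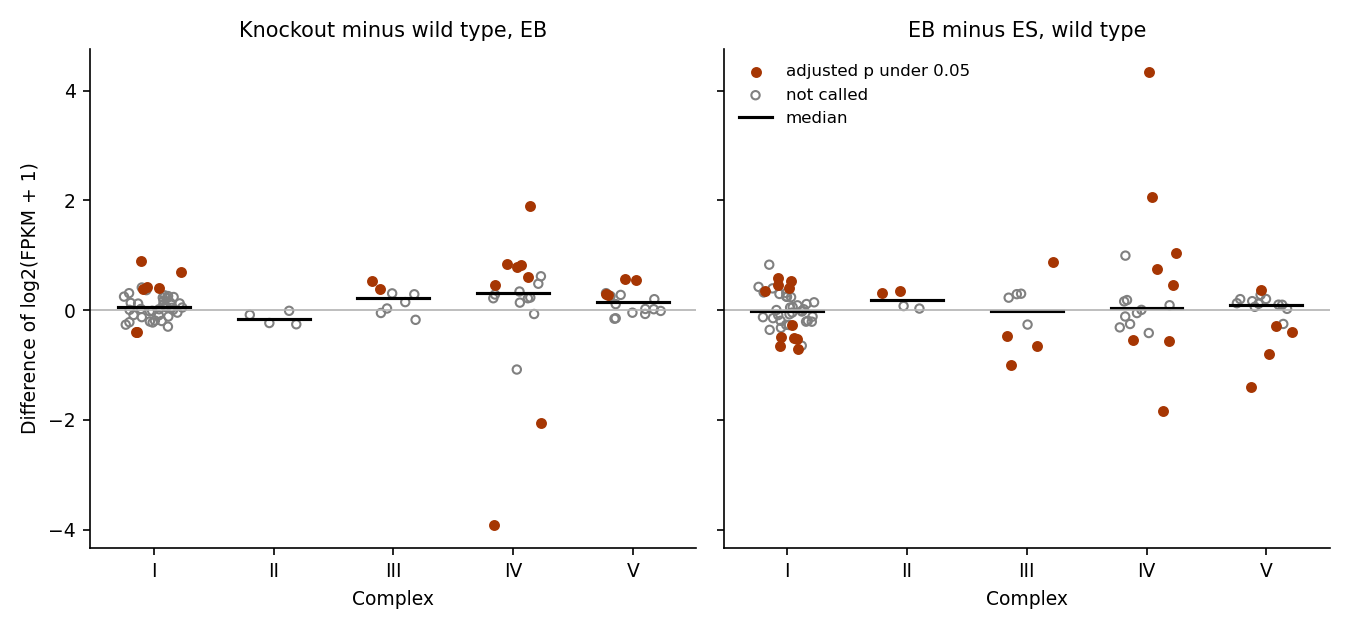
Differences of log2(FPKM + 1) for the 90 tested members by complex, knockout minus wild type EB on the left and wild type EB minus wild type ES on the right; filled points passed an adjusted p under 0.05, open points did not, and bars are medians. Most points lie within 1 of zero, the complex IV median is 0.31 on the left, and the points beyond 1.5 are the complex IV isoforms Cox6a2, Cox8b and Ndufa4l2.

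Complex IV, cytochrome c oxidase, held the clearest rise in knockout EB. All 10 of its general nuclear subunits that were tested here stood above 0 (median 0.31), 4 of them called (against 20.0% of all genes called higher). After scaling to the same total 9 of 10 stood above 0 with 3 called (against 14.8% of all genes). Cox7c, a small structural subunit (ENSMUSG00000017778.14, chromosome 13, 86044816 to 86046904), had 471 and 458 FPKM in wild type EB and 888 and 760 FPKM in knockout EB. Its ES libraries lay between these, from 649 to 728 FPKM. Cox7c rose by 0.82 ± 0.12 (SE, limma, adjusted p = 0.00196) in knockout EB. Cox6c, another small subunit (ENSMUSG00000014313.15, chromosome 15, 35925886 to 35938246), had 411 and 373 FPKM in wild type EB and 756 and 611 FPKM in knockout EB, and its ES libraries did not exceed 482 FPKM. It rose by 0.79 ± 0.13 (adjusted p = 0.00307). Cox5a, which sits on the matrix side of the catalytic core (ENSMUSG00000000088.7, chromosome 9, 57521274 to 57532426), had 218 and 161 FPKM in wild type EB and 368 and 311 FPKM in knockout EB. Both knockout EB libraries exceeded all 6 others, the highest of which had 300 FPKM. Cox5a rose by 0.84 ± 0.18 (adjusted p = 0.00771), and lost this call when EB knockout replicate 1 was left out (0.0556). Cox7a2, the general isoform of subunit 7a, was at 0.46 ± 0.11 (adjusted p = 0.0132) and lost its call after scaling to the same total, without EB wild type replicate 2 (0.0740) and without EB knockout replicate 1 (0.0868). The others (Cox5b, Cox6a1, Cox6b1, Cox7b, Cox8a and Ndufa4, a subunit once counted with complex I) did not pass the test.

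Tissue isoforms of complex IV moved in opposite directions. Cox6a2, the heart and skeletal muscle isoform of subunit 6a (ENSMUSG00000030785.8, chromosome 7, 128205435 to 128206387), had 17.7 and 23.3 FPKM in wild type EB, 0.136 and 0.755 FPKM in knockout EB and at most 0.340 FPKM in ES. Cox8b (ENSMUSG00000025488.9, chromosome 7, 140898945 to 140900446) had 1.62 and 5.66 FPKM in wild type EB and was listed at 0 in the other 6 libraries. Both genes were thus present in wild type EB and at or near 0 elsewhere. They passed the filter on low values only through the wild type EB libraries. The filter therefore fixed that knockout EB was lower and that the libraries did not overlap. Cox6a2 fell by 3.92 ± 0.25 (limma, adjusted p = 0.000237) in knockout EB. Cox8b was called lower there (adjusted p = 0.00534), with no fold given against libraries at 0. Given this filter, these p-values are no support for the difference. Cox6a2 made up 2.73% and 3.48% of Cox6a FPKM in the wild type EB libraries, the rest being Cox6a1, which had 632 and 647 FPKM there. Markers of several differentiated cell types were also lower in knockout EB, and their part in the result was not tested. Calls were lower for 13 of 13 cardiomyocyte genes, 11 of 12 of blood and endothelium, 8 of 9 of fibroblasts and feeder cells (with 1 higher) and 5 of 7 of endoderm. Skeletal muscle markers gave 3 lower and 1 higher among 4 that passed the filter.

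Other isoforms were higher in knockout EB. Ndufa4l2, a hypoxia-responsive paralog of Ndufa4 (ENSMUSG00000040280.10, chromosome 10, 127514967 to 127517154), had 3.00 and 3.92 FPKM in wild type EB and 19.1 and 12.6 FPKM in knockout EB. Its ES libraries spread widely, with 10.7 and 20.5 FPKM in wild type against 5.29 and 21.9 FPKM in knockout, so knockout EB stood in the range of ES and wild type EB below it. Ndufa4l2 rose by 1.90 ± 0.59 (adjusted p = 0.0341), and lost this call when any 1 of the 4 EB libraries was left out (adjusted p from 0.0646 to 0.161). Cox6b2, known as the testis isoform of subunit 6b, had 36.8 and 33.4 FPKM in wild type EB and 62.9 and 46.2 FPKM in knockout EB, and rose by 0.61 ± 0.16 (adjusted p = 0.0181). That call ended without either wild type EB library or without EB knockout replicate 1 (adjusted p from 0.0516 to 0.0977). Cox7a1, the muscle isoform of subunit 7a, did not follow Cox6a2: it had 64.0 and 57.6 FPKM in wild type EB and 112 and 64.7 FPKM in knockout EB, and did not pass the test. Cox4i2, the lung and hypoxia isoform of subunit 4, had 7.10 and 1.90 FPKM in wild type EB and at most 2.12 FPKM elsewhere, so its level rested on 1 library. Cox7b2 was at most 1.84 FPKM in any library, and Cox8c, known from testis, at most 0.893 FPKM.

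**Figure D3:**
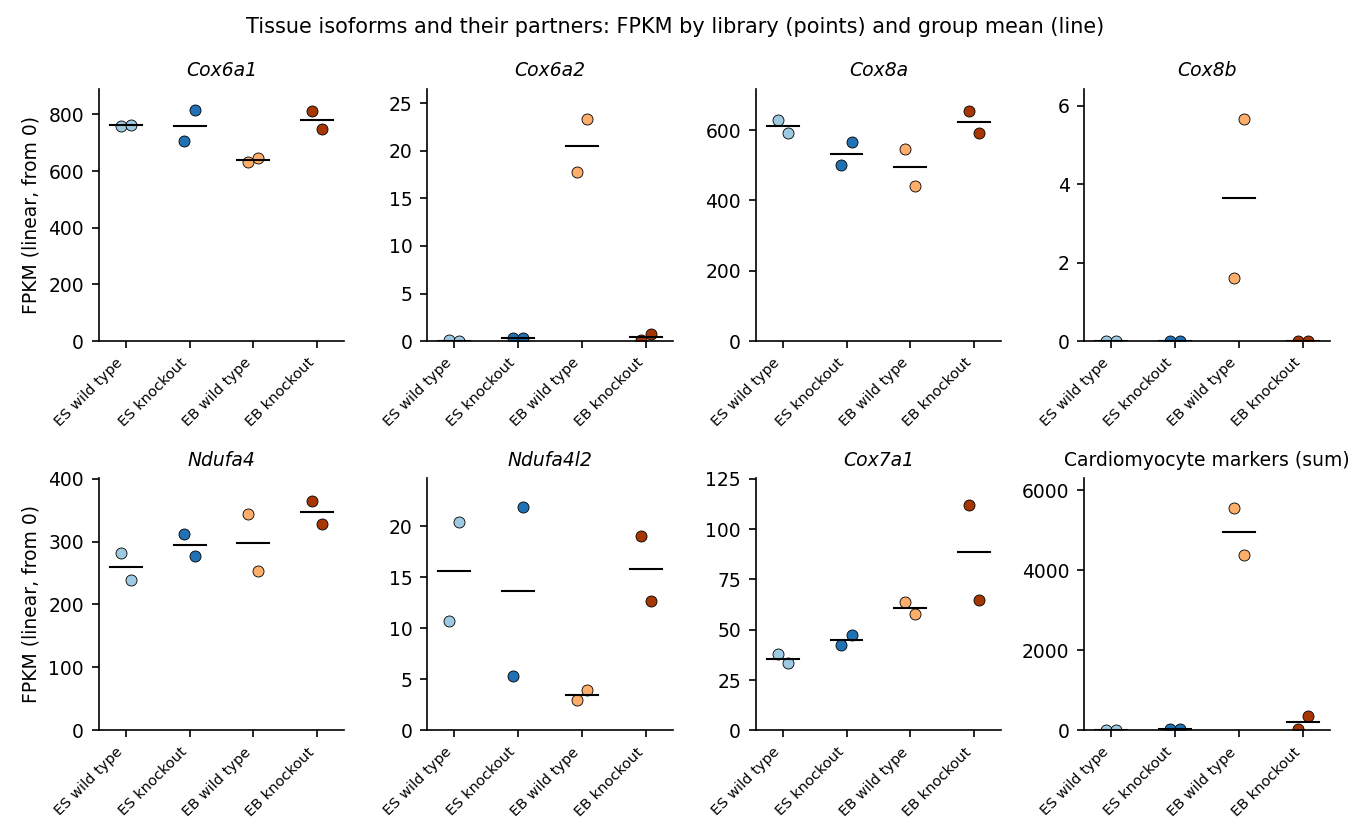
FPKM of complex IV tissue isoforms and their general partners, and the summed FPKM of 13 cardiomyocyte markers, by library (points, linear axes from 0) with group means (lines, n = 2). Cox6a2, Cox8b and the marker sum are highest in wild type EB, while Ndufa4l2 is lowest there. Both isoforms are near 0 in the other 3 groups, and the marker sum reaches 358 in knockout EB replicate 2. Summed markers of blood and endothelium, of fibroblasts and of endoderm, not drawn, are also highest in wild type EB. The sum over 9 skeletal muscle markers, not drawn, is lowest there. It is 28.56 and 38.25 FPKM in wild type EB and 117 to 392 FPKM in the other libraries. Only 1 of these 9 markers reached 1 FPKM in each wild type ES library.

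Complex III, the cytochrome bc1 complex, had 2 of 8 members called higher in knockout EB and 0 lower (20.0% and 25.9% of all genes). After scaling to the same total it had 1 of each (14.8% and 33.9% of all genes). Uqcrc1, a large core subunit on the matrix side (ENSMUSG00000025651.14, chromosome 9, 108936633 to 108949623), had 116 and 124 FPKM in wild type EB and 183 and 164 FPKM in knockout EB. The ES libraries ran from 168 to 192 FPKM, so wild type EB stood alone at the low end. Uqcrc1 rose by 0.52 ± 0.095 (adjusted p = 0.00466) in knockout EB and was called in every left-out fit and under all 3 scalings. Uqcrq, a small subunit that contacts cytochrome b, was at 256 and 245 FPKM in wild type EB and at 347 and 311 FPKM in knockout EB, with 428 to 539 FPKM in ES. Its difference of 0.39 ± 0.11 (adjusted p = 0.0279) was called as deposited but under neither other scaling, and not without EB wild type replicate 1 (0.0645), EB wild type replicate 2 (0.103) or EB knockout replicate 1 (0.157). Uqcrfs1, the Rieske iron-sulfur protein, had 89.9 and 89.9 FPKM in wild type EB and 87.7 and 85.8 FPKM in knockout EB.

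Complex V, the ATP synthase, had 4 of 16 members called higher and 0 lower as deposited (20.0% and 25.9% of all genes). After scaling to the same total it had 0 higher and 3 lower (14.8% and 33.9% of all genes). Atp5b had 1117 and 1203 FPKM in wild type EB and 1583 and 1863 FPKM in knockout EB. The ES libraries ran from 1696 to 2017 FPKM, and wild type EB was again the lowest group. The difference in EB was 0.57 ± 0.12 (adjusted p = 0.00972), and it was not called when EB knockout replicate 2 was left out (0.0560) or under either other scaling. Atp5l, the g subunit of the membrane part, had 274 and 218 FPKM in wild type EB and 377 and 337 FPKM in knockout EB, a difference of 0.54 ± 0.14 (adjusted p = 0.0157) that was not called after scaling to the same total, without EB wild type replicate 2 (0.0745) or without EB knockout replicate 1 (0.0969). Atp5a1, the alpha subunit, and Atp5c1, the gamma subunit of the rotating shaft, were each at 0.29 and lost their calls in every left-out fit and under both other scalings. Atp5o, the subunit that links the head to the peripheral stalk, had 300 and 293 FPKM in wild type EB and 277 and 288 FPKM in knockout EB and was not called.

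Complex I, NADH dehydrogenase, had 5 of its 44 members called higher in knockout EB, while 2 were called lower. Each share was below that of all genes, at 20.0% for higher calls and 25.9% for lower ones. Scaling to the same total gave 2 higher and 7 lower members, again below the background (14.8% and 33.9%). The rises that held under all 3 scalings were of assembly factors and not of subunits. Ndufaf6, needed for the build of complex I (ENSMUSG00000050323.14, chromosome 4, 11051045 to 11076205), had 12.8 and 12.5 FPKM in wild type EB and 24.3 and 24.4 FPKM in knockout EB, with 13.2 to 24.2 FPKM in ES. It rose by 0.90 ± 0.19 (adjusted p = 0.00766). Ndufaf2, a factor bound to late assembly intermediates, had 39.0 and 30.6 FPKM in wild type EB and 63.4 and 50.5 FPKM in knockout EB, and rose by 0.70 ± 0.18 (adjusted p = 0.0182). The Ndufaf2 call ended without EB wild type replicate 2 (0.108) or EB knockout replicate 1 (0.113). The accessory subunits Ndufa7, Ndufb2 and Ndufb4 were called at 0.42, 0.39 and 0.41, and none of the 3 was called after scaling to the same total, without EB wild type replicate 2 or without EB knockout replicate 1.

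A core subunit of complex I was on the other side. Ndufs7, the core subunit that carries the last iron-sulfur cluster before ubiquinone, had 109 and 103 FPKM in wild type EB and 76.6 and 84.2 FPKM in knockout EB. It fell by 0.39 ± 0.10 (adjusted p = 0.0166), and was not called when EB wild type replicate 1 (0.0831), EB wild type replicate 2 (0.0515) or EB knockout replicate 1 (0.104) was left out. Ndufv1 and Ndufv2, core subunits of the part that oxidises NADH, were not called.

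Complex II, succinate dehydrogenase, which also works in the citric acid cycle, had all 4 members below 0 in knockout EB (median -0.16), with 0 called by limma and 0 at an unadjusted p under 0.05. After scaling to the same total 3 of the 4 were called lower, where 33.9% of all genes were, and after quantile normalization 1 of the 4 was. Sdha, the flavoprotein that oxidises succinate, had 178 and 190 FPKM in wild type EB and 149 and 165 FPKM in knockout EB. Sdhb, the iron-sulfur subunit, had 88.3 and 90.5 FPKM in wild type EB and 90.5 and 86.9 FPKM in knockout EB.

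**Figure D4:**
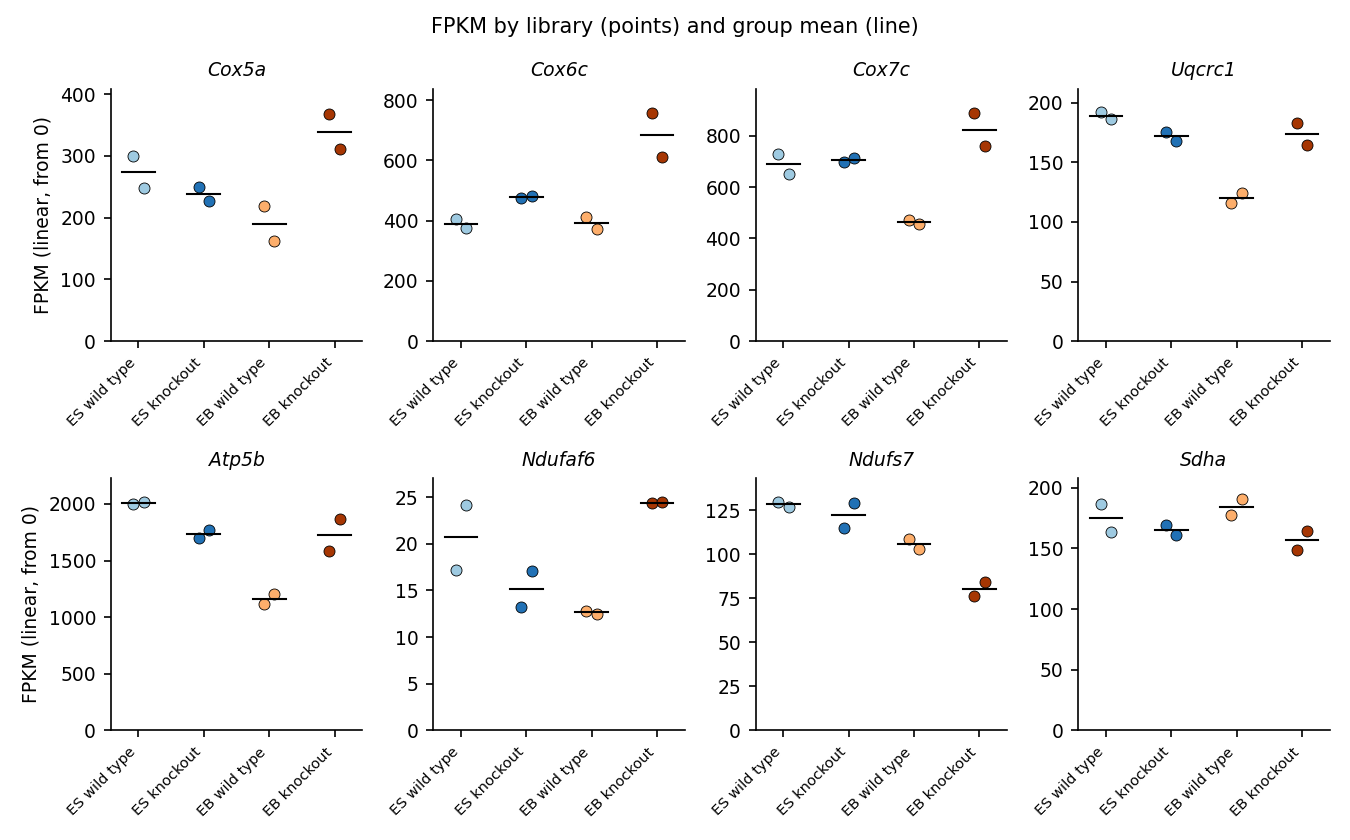
FPKM of 8 members by library (points, linear axes from 0) with group means (lines, n = 2). Cox5a, Cox6c and Cox7c are highest in knockout EB, Uqcrc1 and Atp5b are lowest in wild type EB, and Ndufs7 is lower in knockout EB (76.6 and 84.2 FPKM) than in wild type EB (109 and 103 FPKM).

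In ES cells no member was called between knockout and wild type (0 of 90 in either direction by limma). Over all genes 0.421% were called higher and 0.0778% lower there. The median member difference was -0.06, against 0.02 for all genes, and 9 members had an unadjusted p under 0.05, among them Ndufb4 at -0.42 ± 0.10 (adjusted p = 0.129) and Ndufb10 at -0.40 ± 0.10 (adjusted p = 0.143). Ndufa3, an accessory subunit of complex I, had 580 FPKM in ES knockout replicate 2 and 124 to 158 FPKM in the other 3 ES libraries. Of the 83 tested members outside the tissue isoforms, 81 differed by less than 0.5 between the genotypes in ES.

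Differentiation of wild type cells changed members in both directions. From ES to EB, 14 of 90 members were called higher and 16 lower, while over all genes 36.1% were called higher and 24.8% lower. With libraries scaled to the same total the split was 28 higher and 14 lower (39.5% and 22.1% of all genes), and with quantile normalization 32 higher and 17 lower (29.0% and 33.6% of all genes). The member median was 0.04 as deposited, against 0.12 for all genes, and 0.15 after scaling to the same total, against 0.22. Quantile normalization gave 0.16 against -0.11, so the members lay below all genes under the first 2 scalings and above them under the third. Higher calls fell to 6 without ES wild type replicate 2 and to 5 without EB wild type replicate 1, and lower calls to 10 without ES wild type replicate 1. All 14 higher and 13 of the 16 lower calls were also made under both other scalings. Among the 14, Cox6a2 and Cox8b passed the filter on low values only through wild type EB.

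Single subunits within a complex went opposite ways over this step. In complex III, Uqcrh, the hinge protein beside cytochrome c1 (ENSMUSG00000063882.12, chromosome 4, 116066965 to 116075071), had 191 and 203 FPKM in wild type ES, against 402 and 328 FPKM in wild type EB. It rose by 0.88 ± 0.12 (adjusted p = 0.000648). Uqcrq (ENSMUSG00000044894.14, chromosome 11, 53427922 to 53430831) had 539 and 467 FPKM in wild type ES, against 256 and 245 FPKM in wild type EB, and fell by 1.00 ± 0.11 (adjusted p = 0.000292). Uqcrc1 fell by 0.65 ± 0.095 (adjusted p = 0.000918). Cox7a2l, which joins complexes III and IV into supercomplexes (ENSMUSG00000024248.13, chromosome 17, 83501919 to 83514333), had 84.7 and 73.8 FPKM in wild type ES, against 177 and 152 FPKM in wild type EB, and rose by 1.05 ± 0.13 (adjusted p = 0.000421). Knockout EB reached nearly the same level, with 157 FPKM in both libraries, and the difference of both knockout effects was not called for Cox7a2l.

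The c subunit of complex V, which forms the rotating ring, is encoded by 3 genes for the same mature protein. Atp5g1 (ENSMUSG00000006057.15, chromosome 11, 96068852 to 96075670) had 484 and 413 FPKM in wild type ES, against 169 and 170 FPKM in wild type EB, and fell by 1.40 ± 0.14 (adjusted p = 0.000160). In knockout cells it had 401 and 315 FPKM in ES and 198 and 207 FPKM in EB, and fell by 0.81 ± 0.14 (adjusted p = 0.00717). Its share of the c subunit FPKM went from 36.1% and 35.7% in wild type ES to 16.2% and 18.1% in wild type EB. The share of Atp5g3 went from 34.1% and 32.4% to 51.6% and 50.2% over the same step, and Atp5g2 stayed between 29.8% and 32.2%. Atp5b fell by 0.79 ± 0.12 (adjusted p = 0.00130) and Atp5a1 by 0.40 ± 0.087 (adjusted p = 0.00565) in wild type cells.

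In knockout cells 19 members were called higher and 3 lower from ES to EB, against 17.1% and 12.0% of all genes. Without ES knockout replicate 1 the higher calls were 10, without ES knockout replicate 2 they were 11, without EB knockout replicate 1 they were 8, and without EB knockout replicate 2 they were 12. Ndufb4 rose by 0.70 ± 0.10 (adjusted p = 0.00423), Ndufa6 by 0.82 ± 0.12 (adjusted p = 0.00437) and Sdhb by 0.60 ± 0.086 (adjusted p = 0.00411). Lower calls were of Atp5g1, Ndufs7 and Uqcrq, and that of Uqcrq was lost without any 1 of the 4 knockout libraries (adjusted p from 0.0552 to 0.140).

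The knockout effect itself differed between EB and ES for 11 members called higher and 2 lower (over all genes 12.7% higher and 18.6% lower), with 5 higher and 6 lower after scaling to the same total (9.14% and 24.8% of all genes). The 2 lower members passed the filter on low values only through wild type EB, so their calls rest on the values that the filter used. The 5 higher calls made under all 3 scalings were Cox5a at 1.04 ± 0.25 (adjusted p = 0.0204), Cox7c at 0.79 ± 0.16 (0.0136), Ndufaf6 at 1.32 ± 0.26 (0.0118), Ndufb4 at 0.83 ± 0.14 (0.00754) and Uqcrc1 at 0.66 ± 0.13 (0.0123). Of these, Cox7c lost its call without ES wild type replicate 1 (0.0531), and Cox5a without ES wild type replicate 1 (0.0656), ES knockout replicate 2 (0.0577), EB wild type replicate 2 (0.0510) or EB knockout replicate 1 (0.0719). The lower calls were Cox6a2 and Cox8b, and Cox8b was not called when any 1 library was left out (adjusted p from 0.0612 to 0.0793 in the 6 fits that tested it). Without either wild type EB library, neither Cox6a2 nor Cox8b passed the filter, so those fits did not test them. Some lower calls in fits with 1 library left out were of other members. Higher calls ranged from 3, without ES wild type replicate 1, to 11 when 1 library was left out, with 5 without EB wild type replicate 2 or EB knockout replicate 1, 6 without ES knockout replicate 1, and 7 without ES wild type replicate 2 or ES knockout replicate 2.

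Genes around the members gave a mixed picture in knockout EB, where 20.0% of all genes were called higher and 25.9% lower. None of the 13 mitochondrially encoded subunits was called between knockout and wild type EB (limma; 2 at an unadjusted p under 0.05; median 0.12). From ES to EB 4 of these 13 fell in wild type cells (mt-Nd1, mt-Nd2, mt-Co2 and mt-Cytb) and 6 in knockout cells, against 24.8% and 12.0% of all genes. Of 5 tested subunits and carriers outside the symbol rule, 3 rose in knockout EB: Cyc1, the cytochrome c1 of complex III, by 0.38 ± 0.10, the ATP synthase inhibitor Atpif1 by 0.48 ± 0.13, and Cyct, the testis cytochrome c, by 2.08 ± 0.34. Of 36 tested assembly factors 5 rose and 5 fell, with the copper chaperone Cox17 at 0.91 ± 0.18, Cox18 at 0.81 ± 0.16 and Cox19 at -0.93 ± 0.15. Cox16, Ecsit and Sco1 also rose, and Coa3, Cox20, Sdhaf1 and Tmem126b also fell, all named after their values were seen.

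Of 21 citric acid cycle and pyruvate dehydrogenase genes 8 rose and 2 fell in knockout EB, against 20.0% and 25.9% of all genes. Pdha1, the E1 alpha subunit of pyruvate dehydrogenase, rose by 1.12 ± 0.095 and Idh3a, a subunit of isocitrate dehydrogenase, by 1.02 ± 0.13. Pdk1, a kinase that inhibits pyruvate dehydrogenase, rose by 1.68 ± 0.16, and the 2 that fell, its relatives Pdk2 by 1.34 ± 0.26 and Pdk3 by 0.63 ± 0.14, were named after their values were seen. Of 20 regulators 5 rose and 2 fell, against the same shares of all genes. Esrrb, a pluripotency factor of the estrogen-related receptor family, had 5.12 and 9.38 FPKM in wild type EB and 106 and 76.2 FPKM in knockout EB. Ppargc1a, the coactivator best known for inducing mitochondrial genes, had 3.42 and 2.15 FPKM in wild type EB and was at 0 and 0.166 FPKM in knockout EB, a fall of 1.79 ± 0.21. Of the EB libraries, only the wild type ones reached the filter's 1 FPKM for Ppargc1a. The filter may thus have fixed the direction of its fall. Esrrg, a receptor of the same family as Esrrb that is known from heart, fell by 2.09 ± 0.17. The same limit may hold for Esrrg, and neither case was tested. The other rises, named after their values were seen, were of Gabpa, Gabpb2, Pprc1 and Tfb1m.

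Histone marks were compared for 88 members with a value, with 1 library per group, so these are values with no test. The submitters named the deposited values RPKM on promoters, with no window given, and whether they are per kilobase of gene cannot be told from them. The median gene was lower among loci under 10 kb than among all, so values are compared for the same gene or for genes of like length. H3K4me3, the mark of active promoters, had a member median from 13.2 to 15.8 over the 4 libraries, against 8.94 to 11.0 for all genes. Among loci under 10 kb it was 12.4 to 14.6 for 59 members and 1.76 to 2.96 for all genes. H3K27me3, the mark of Polycomb repression, had a member median from 0.187 to 0.240, against 1.56 to 1.79 for all genes. Among loci under 10 kb the gap was smaller, with 0.107 to 0.160 for 59 members and 0.347 to 0.427 for all genes. In wild type EB 85 of 88 members had an H3K4me3 signal of at least 1, against 74.4% of all genes, and 8 of 88 an H3K27me3 signal of at least 1, against 59.8%. Neither count was matched for locus length.

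The 3 members with H3K4me3 below 1 were Cox6a2, Cox8b and Cox8c, in all 4 libraries. Cox8a, whose CpG-rich window is printed above, had 18.6 in both wild type and knockout EB, while Cox8b, of similar length, had 0.107 in wild type EB, against 0.267 in knockout EB. Cox6a2 was at 0.107 in wild type EB, where its RNA was present, and Cox6a1 at 21.6. H3K27me3 at Cox6a2 was from 0.267 to 0.480 and at Cox8b from 0.0534 to 0.240.

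Between knockout and wild type EB, 4 of 88 members were at least 2-fold higher in H3K4me3 and 1 was at least 2-fold lower, against 11.7% and 6.52% of all genes. Only Atp5g2 and Ndufa4l2 among the 4 had a signal of at least 1 in either library. Ndufa4l2 had an H3K4me3 signal of 3.52 in wild type ES, 4.56 in knockout ES, 2.48 in wild type EB, against 10.3 in knockout EB. Its H3K27me3 signal was 1.25, 1.09, 5.04 and 1.12 in the same order. Wild type EB was thus the group with the highest H3K27me3, the lowest H3K4me3 and the lowest RNA of this gene. Members with the highest H3K27me3 values in wild type EB had loci of unlike length, so these values do not rank them. They were Cox7b2 (5.48, 105382 bases), Ndufaf2 (5.08, 155909 bases), Ndufa4l2 (5.04, 2188 bases), Cox4i2 (2.92, 10865 bases) and Ndufs4 (2.72, 100464 bases).

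**Figure D5:**
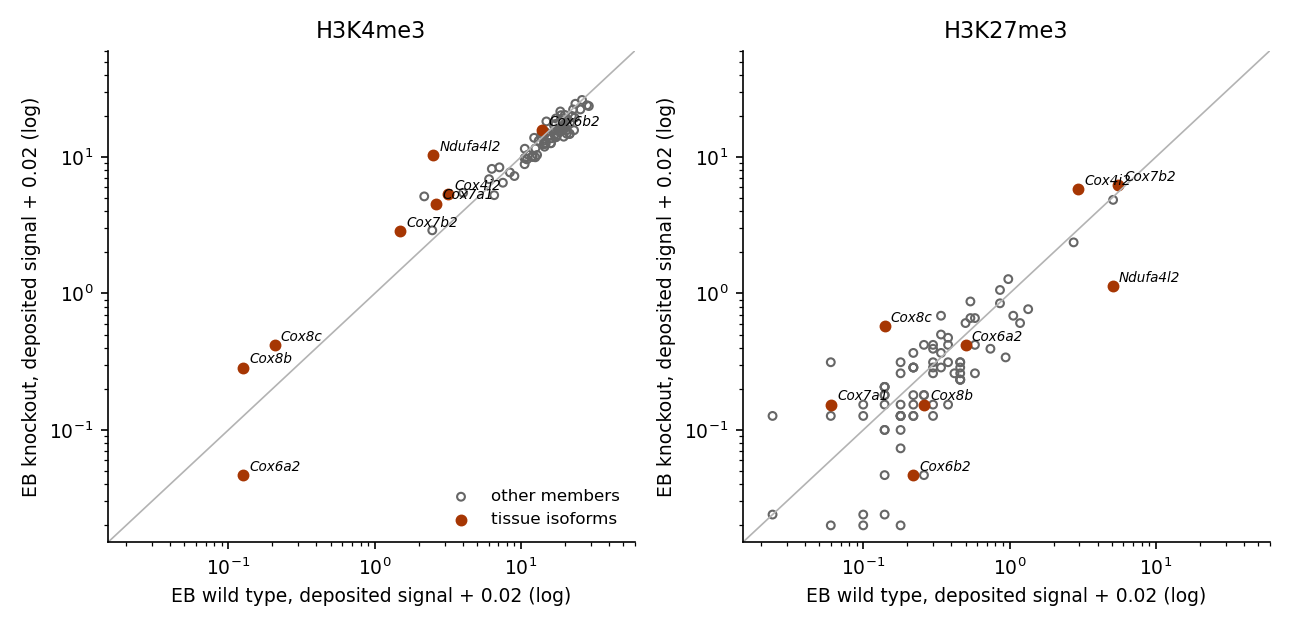
Deposited signal of H3K4me3 (left) and H3K27me3 (right) in wild type EB (x axis) and knockout EB (y axis) for 88 members, on log axes after adding 0.02, with 1 library per point and axis and the line of equality. Ndufa4l2 lies above the line for H3K4me3 (2.48 and 10.3) and below it for H3K27me3 (5.04 and 1.12), and Cox6a2, Cox8b and Cox8c lie near 0 for H3K4me3.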

How the data were processed

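RNA-seq covered 8 libraries (4 groups of 2) and ChIP-seq 8 (H3K4me3 and H3K27me3, 1 per group); 4 input libraries were not analysed here. The deposited RNA table holds FPKM computed by the authors, per the file headers, which carry the column names that Cufflinks writes. Build mm10 is named in the submitters' processing notes, with the tools Bowtie2, Cufflinks 2.2.1, DESeq2, HTSeq and STAR 2.6.0a. For ChIP the deposited values are a signal for each gene that the submitters named RPKM on promoters, with no stated window and unknown depth. All columns were mapped by name (0 left unmapped).

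For 120 symbols with a further entry, the entry with the highest mean was kept. Genes that reached 1 FPKM in 2 or more libraries entered a limma fit of log2(FPKM + 1), with 1 mean per group and eBayes with a trend (limma 3.58.1, R 4.3.3). Tests were two-sided, with 4 residual degrees of freedom (7.05 after moderation), Benjamini-Hochberg adjustment over 15428 genes and calls at an adjusted p under 0.05. The fit was tested on simulated data. Where nothing says that libraries of a group were separate cultures, p-values measure the spread between libraries, which may be technical. ChIP ratios used a pseudocount of 0.004. Promoter windows were matched by symbol or a unique synonym. Any member could be named (the results of 1 member are not reported here); beyond these, up to 3 called genes per list with the smallest adjusted p were named, and any others are marked. The members and the lists were chosen with earlier results of these data known. Alternatives were another pseudocount, no filter, other scalings, the replicate number as a block, only the groups compared, and each library left out.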

Additional observations from a re-analysis of the deposited data

Results flagged for a closer look

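The knockout effect differed between EB and ES, by limma's interaction term on the log2(FPKM + 1) scale (adjusted p under 0.05), in 13 members. These were 11 of 90 above 0 and 2 below, against 12.7% and 18.6% of all genes, so neither count exceeded its background share. The values are the effect in EB minus the effect in ES. Below 0 were the muscle isoforms Cox6a2 (-4.26) and Cox8b (-2.06, a size set by the added 1 FPKM, since 6 libraries are listed at 0). Both passed the filter on low values only through wild type EB. Above 0 were Ndufaf6 (1.32), Cox5a (1.04), Ndufb4 (0.83), Cox7c (0.79), Atp5b (0.78), Uqcrc1 (0.66), Uqcrq (0.56), Cox7a2 (0.54), Uqcr10 (0.53), Ndufa7 (0.52) and Ndufb10 (0.45). For Ndufb4 the knockout was lower in ES (30.6 and 29.7 FPKM, against 40.7 and 40.9 in wild type) and higher in EB (53.1 and 46.6 FPKM, against 36.7 and 37.8), and only the EB difference passed the test. Of the 11 above 0, Atp5b, Cox7a2, Ndufa7, Ndufb10, Uqcr10 and Uqcrq were called under the deposited scaling alone.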

How the results depend on the processing

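The replicate numbers share only a number, since the labels do not say that they mark a shared culture and a group has 2 libraries (deviations of same-numbered libraries correlated at 0.0678 to 0.311); with the replicate block, 17 members were called higher in the difference of the knockout effects instead of 11, and no member's call was lost. Scaled to the same total, members called higher and lower were 8 and 16 (median -0.0837) in knockout against wild type EB, 28 higher (median 0.15) for EB against ES in wild type, 7 lower (median 0.0604) in knockout, and 5 and 6 (median -0.062) for the difference of the effects. With quantile normalization, 7 were lower in knockout EB, 32 higher (median 0.16) from ES to EB in wild type, 6 lower in knockout, and the median difference of the effects was 0.0928. With no filter, 9 were higher in wild type EB, 11 in the knockout series, and 4 higher and 1 lower in the difference. With only the groups compared, 11 were higher in knockout EB and 11 from ES to EB in knockout. Leaving out 1 library gave 5 to 15 higher and 1 to 4 lower (median 0.089 to 0.14) for knockout EB, a median of -0.10 to 0.0034 for knockout ES, 5 to 17 higher and 10 to 15 lower (median -0.012 to 0.074) for differentiation in wild type, 8 to 17 higher in knockout, and 3 to 11 higher and 0 to 2 lower (median 0.086 to 0.21) for the difference. Without mitochondrially encoded and short models, the members' share was 2.66%, 2.61%, 2.53% and 2.53% of FPKM in wild type ES, knockout ES, wild type EB and knockout EB. For the histone marks, the median log2 H3K4me3 ratio of wild type EB over ES turned from 0.11 to -0.18 with libraries scaled to the same median, and for loci under 10 kb the median H3K27me3 ratio was -0.56 for knockout over wild type EB (-0.26 over all members) and 0.57 for EB over ES in wild type (0.30 over all members). The causes of these changes were not tested. No gene's call reversed its direction. Depth is unknown, so low values such as those of Cox8b have no counting error.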

Other observations

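The 6 models marked "-ps" with the same symbol starts had low values: Uqcrh-ps1 reached 5.98 FPKM, Atp5l2-ps 5.20, Atp5l-ps1 4.03, Ndufab1-ps 3.74 and Atp5l-ps2 0.773 at most, while Atp5k-ps2 had 8.59 FPKM in ES knockout replicate 2 and 0 in the other 7 libraries.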
